A study of Homo sapiens with 6 samples.

Results

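Zinc, iron and copper are trace metals that cells need in enzymes and regulators and that do harm when they accumulate unbound. The genes described here are 35 genes of metal handling in BT-549 cells: the zinc sensor MTF1, zinc transporters of the SLC30 and SLC39 families, and genes for the uptake, storage, export, sensing and delivery of iron and copper. They were picked by symbol from a list of known metal genes, and each of the 35 symbols matched 1 identifier among the 63140 genes listed for every library. BT-549 is a human triple negative breast cancer line. Cells were grown for 24 h in adipocyte-conditioned media (ACM, 3 libraries) or in unconditioned media (UCM, 3 libraries), and the question put to these genes was which metal, if any, their pattern fits.

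Both groups were wild-type cells of the same line, so that the medium is the only labelled difference. The study's supplement describes ACM as alpha-MEM of low serum content, supplemented with albumin, oleate and insulin, after culture of OP9 mouse cells in it as they turned into adipocytes, whereas BT-549 cells were kept in RPMI-1640 with serum and insulin. The composition of UCM is not stated in the sources used here. Base medium, serum, albumin and oleate, each of which can carry or bind metals, therefore cannot be told apart from adipocyte secretions. The labels give 50% ACM, while the supplement speaks of undiluted ACM for the RNA-seq. Nothing says that replicates were more than separate wells, so the p-values measure the spread between these samples.

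Free zinc in the cell is sensed by MTF1, a transcription factor that binds metal response elements in promoters. High zinc is known to raise metallothionein and SLC30A1 transcripts through MTF1 and to lower SLC39A10, so that binding and export go up while uptake goes down. Iron is governed mostly after transcription: iron regulatory proteins bind stem-loops in mRNAs, which stabilises TFRC mRNA and blocks ferritin translation when iron is low, so ferritin mRNA need not follow ferritin protein. Copper in human cells is governed mostly by moving the transporters ATP7A, ATP7B and SLC31A1 between membranes, and their transcripts are not known as strong readouts of copper.

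Expected counts summed to 21053214, 18011677 and 18378771 in ACM replicates 1, 2 and 3 and to 20975771, 18591257 and 17135270 in UCM. CPM, counts scaled to a common library total, were adjusted between libraries, and TPM, which also divide by gene length, were used to set genes side by side. BT-549 is labelled epithelial, but of 9 epithelial markers only CDH1 passed the filter on low counts, and their summed level was between 1.36 and 3.33 TPM per library, with ESRP1 at 0 in every library. The 5 mesenchymal markers summed to between 4344 and 5127 TPM, led by VIM. ESR1 and PGR had no count in any library, and ERBB2 averaged 28.2 TPM. None of 6 adipocyte markers passed the filter, with ADIPOQ, LEP and CIDEC at 0 in every library and a summed level of at most 0.33 TPM. Among 4 macrophage and leukocyte markers CD68, a lysosomal protein that is not restricted to macrophages, was the only one to pass, with AIF1 at 0 in every library. Their summed TPM was 12.8, 31.0 and 21.8 in ACM and 8.36, 6.57 and 6.10 in UCM, nearly all of it from CD68, which was called higher in ACM (log2 fold change 1.76, adjusted p = 0.0335 from edgeR). Its part in the results was not tested.

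Of the 35 members 34 had enough counts to be tested, SLC40A1 being the exception. At an adjusted p at or below 0.05 over all 14451 genes tested, 2 members were higher in ACM (SLC30A1 and SLC39A14) and 2 were lower (SLC39A10 and FBXL5). That is 5.88% of the tested members in each direction, against 3.35% of all genes called higher and 2.21% called lower. The ACM and UCM libraries did not overlap in CPM for 16 of the 34 (47.1%), against 29.0% of all genes tested. The median log2 fold change was 0.07 over the tested members and -0.01 over all genes tested. By metal, 2 of 18 zinc members were called higher and 1 lower, 1 of 9 tested iron members was called lower, and 0 of 7 copper members were called. For the iron members 0 were called higher by edgeR, against 4 at an unadjusted p at or below 0.05, 2 by DESeq2 and 1 by limma-trend. Of all 14451 genes tested, 1714 were higher at that unadjusted p, and 762 were called higher by DESeq2 and 230 by limma-trend. For the copper members 1 was lower at an unadjusted p at or below 0.05 in edgeR, 0 were called by DESeq2 and 0 by limma-trend, while 1659 of all genes tested were lower at that unadjusted p.

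**Figure D1:**
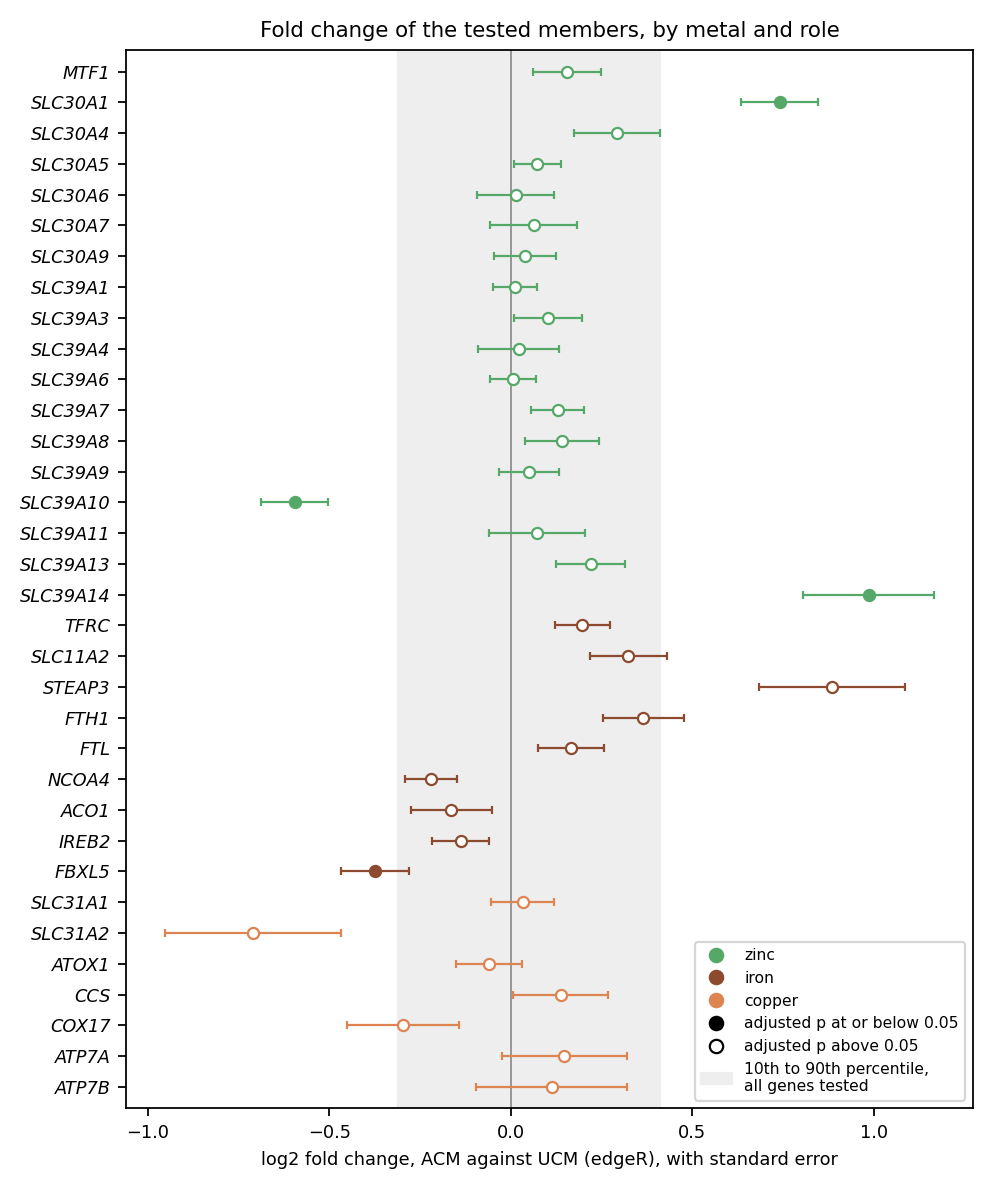
Log2 fold change of ACM against UCM (horizontal axis) for the 34 tested members in order of metal and role, with standard errors. Filled points passed an adjusted p at or below 0.05 and the grey band holds the 10th to 90th percentile of all genes tested, from -0.31 to 0.41. SLC39A14, STEAP3 and SLC30A1 lie to the right of the band, and SLC31A2, SLC39A10 and FBXL5 to its left.

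MTF1 (ENSG00000188786.10), the zinc sensor, had 25.6, 23.7 and 26.3 CPM in ACM replicates 1, 2 and 3 and 23.9, 21.9 and 22 CPM in UCM. The groups overlapped, since ACM replicate 2 lay just under UCM replicate 1. Its log2 fold change was 0.15 (standard error, SE, 0.09, adjusted p = 0.36, edgeR). On the TPM scale the sign turned: limma-trend on log2(TPM + 1) gave -0.22 (adjusted p = 0.688). There MTF1 stood at 9.18 TPM in UCM replicate 3 and between 4.04 and 4.95 TPM in the other 5 libraries. The effective length, which RSEM averages over a gene's transcripts by their abundance, was 3432 bases in UCM replicate 3 and between 7654 and 7661 bases elsewhere. A single library therefore set the TPM difference, and the counts behind it were alike.

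SLC30A1 (ENSG00000170385.10, also called ZnT1), which exports zinc across the plasma membrane, had 52.1, 69.5 and 63.1 CPM in ACM and 38.3, 37.2 and 34.9 CPM in UCM. Every ACM library was higher than every UCM library, and the UCM libraries lay close together. The gene rose 1.67-fold, a log2 fold change of 0.74 (SE 0.11, adjusted p = 0.00499, edgeR, higher in 3 of 3 ACM libraries). It was called under each of the 14 alternatives that were run, with a log2 fold change between 0.64 and 0.85.

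SLC39A10 (ENSG00000196950.14, also called ZIP10), which brings zinc into the cell, went the other way, with 27.8, 25.6 and 28.0 CPM in ACM and 44.9, 39.0 and 39.1 CPM in UCM. All ACM libraries were low and all UCM libraries high, with a gap between the groups wider than the spread within either. Its log2 fold change was -0.60 (SE 0.09, adjusted p = 0.00687, edgeR, lower in 3 of 3 ACM libraries). The call held with each library left out in turn and was lost where length entered: limma-trend on log2(TPM + 1) gave -0.45 (adjusted p = 0.118), and effective lengths as offsets gave -0.47 (adjusted p = 0.0899 from edgeR). Over the 14 alternatives the adjusted p ran from 1.07e-06 to 0.118.

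SLC39A14 (ENSG00000104635.15, also called ZIP14) carries zinc, iron and manganese into cells, and is known as a transporter that rises in inflamed liver. It had 866, 1238 and 796 CPM in ACM and 563, 459 and 442 CPM in UCM. ACM replicate 2 was the highest by far, and the groups did not overlap. The log2 fold change was 0.98 (SE 0.18, adjusted p = 0.0308, edgeR), a fold of 1.98 (higher in 3 of 3 ACM libraries). Without ACM replicate 2 it was 0.77 (adjusted p = 0.0127 from edgeR). The call was lost without UCM replicate 2 (log2 fold change 0.94, adjusted p = 0.129 from edgeR) and without UCM replicate 3 (log2 fold change 0.93, adjusted p = 0.101 from edgeR), although the fold change stayed about as large. Over the 14 alternatives the adjusted p ran from 3.15e-09 to 0.129. Because SLC39A14 takes both zinc and iron, its change does not separate the metals.

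SLC30A4 (ENSG00000104154.7) loads zinc into vesicles. Its values were 13.0, 13.6 and 13.1 CPM in ACM and 10.3, 10.6 and 11.5 CPM in UCM. These groups did not overlap, at low levels, but the log2 fold change of 0.29 (SE 0.12, adjusted p = 0.167, edgeR) did not pass. The other 4 members of the SLC30 family, SLC30A5, SLC30A6, SLC30A7 and SLC30A9, which fill the secretory pathway or act in mitochondria, had log2 fold changes between 0.01 and 0.07 (adjusted p between 0.545 and 0.956, edgeR). The other 9 SLC39 transporters, which move zinc into the cytosol from outside or from organelles, ranged from 8.29 to 287 CPM and from 0.01 to 0.22 in log2 fold change (adjusted p between 0.195 and 0.968, edgeR). Within the SLC39 family, then, SLC39A14 and SLC39A10 were called in opposite directions and the other 9 members were not called.

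**Figure D2:**
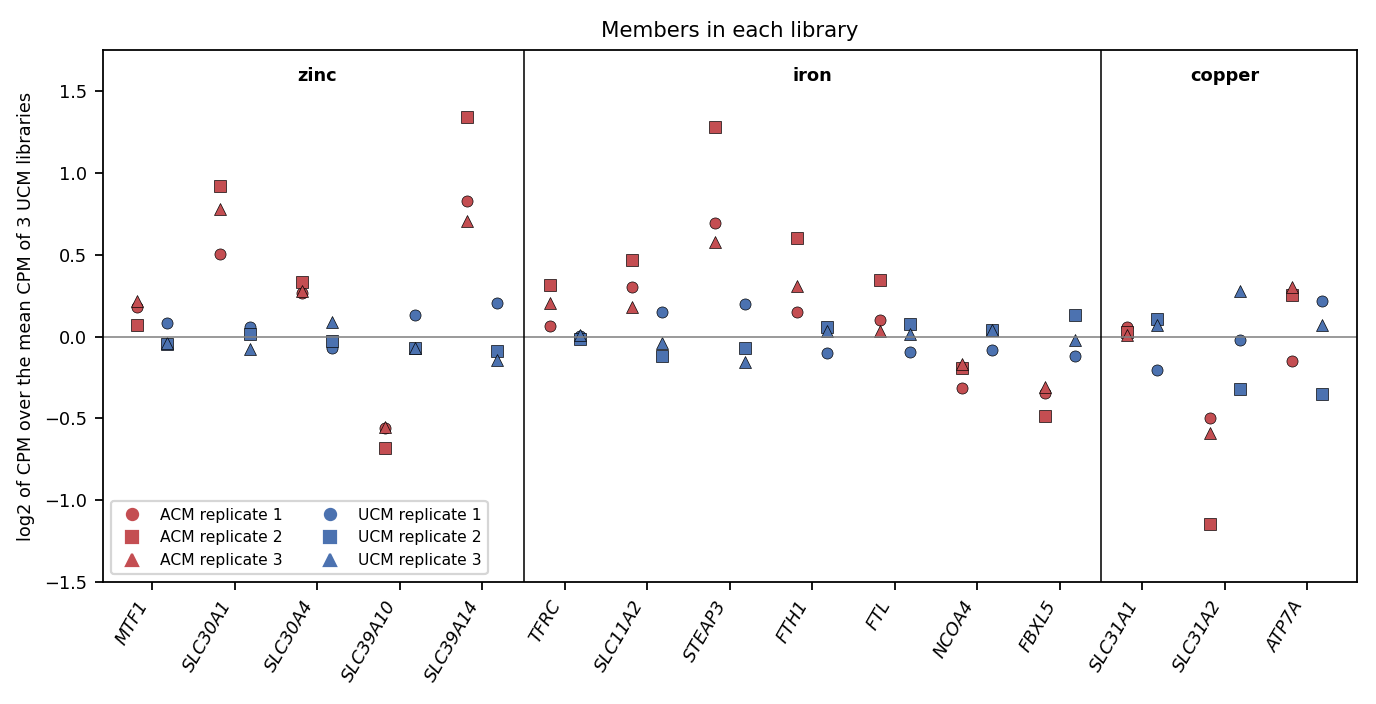
CPM of the named members in each library, as log2 of the ratio to the mean of the 3 UCM libraries (vertical axis), with red for ACM, blue for UCM and a symbol for each replicate. ACM and UCM points do not overlap for SLC30A1, SLC39A10, SLC39A14, STEAP3 and FBXL5, and they mix for MTF1, FTL, SLC31A1 and ATP7A.

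Metallothioneins are small proteins that bind zinc and copper, and their genes, besides answering to MTF1, are known to be induced by cadmium and by glucocorticoids. Of 12 genes listed 5 were tested, 4 were called higher in ACM and 0 lower, with 0 lower at an unadjusted p at or below 0.05 and 0 lower by DESeq2 and by limma-trend, each of which called 5 higher. Among the 5, MT1M had no count in UCM and passed the filter on low counts only through ACM, so it could only come out higher. MT2A had 943, 1719 and 1160 CPM in ACM and 370, 297 and 255 CPM in UCM, a log2 fold change of 2.05 (SE 0.26, adjusted p = 0.0129, edgeR). MT1X had 45.2, 100 and 69.7 CPM in ACM and 14.8, 15.8 and 14.6 CPM in UCM, a log2 fold change of 2.25 (SE 0.30, adjusted p = 0.0146, edgeR). For both genes every ACM library was above every UCM library, and ACM replicate 2 was the highest. MT1E and MT1F had log2 fold changes of 3.05 (adjusted p = 0.0108 from edgeR) and 2.89 (adjusted p = 0.0122 from edgeR), and neither overlapped between the groups. MT1M had 2.04, 11 and 3.26 CPM in ACM, highest in replicate 2, and was at least 34.1-fold higher than a UCM level of 3 counts per library, or at least 16.6-fold without ACM replicate 2. The median log2 fold change was 2.57 over the other 4 tested genes and 2.89 with MT1M at its bound. With only 2 UCM libraries some of these calls were lost: without UCM replicate 2 the adjusted p was 0.0769 for MT2A and 0.0866 for MT1X (edgeR). Leaving out UCM replicate 3 gave 0.0582 and 0.0844 (adjusted p from edgeR). With UCM replicate 1 left out MT2A kept its call (adjusted p = 0.0334 from edgeR) and MT1X did not (adjusted p = 0.071 from edgeR). With every gene of at least 1 count tested, MT1X missed the threshold (adjusted p = 0.0507 from edgeR). MT1E (adjusted p between 0.0652 and 0.0812) and MT1F (adjusted p between 0.0548 and 0.0829, edgeR) lost theirs when any 1 of the UCM libraries was left out. Fold changes stayed large with any 1 library left out. In log2 they ran from 1.78 to 2.23 for MT2A, 1.93 to 2.50 for MT1X, 2.67 to 3.31 for MT1E and 2.47 to 3.16 for MT1F. The list of metallothioneins was chosen with earlier results of these libraries known, so its direction is not independent evidence.

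None of 8 further zinc transporters (SLC30A2, SLC30A3, SLC30A8, SLC30A10, SLC39A2, SLC39A5, SLC39A12 and TMEM163) had enough counts to be tested. Zinc traffic in these cells was therefore read from the 17 transporters among the members.

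**Figure D3:**
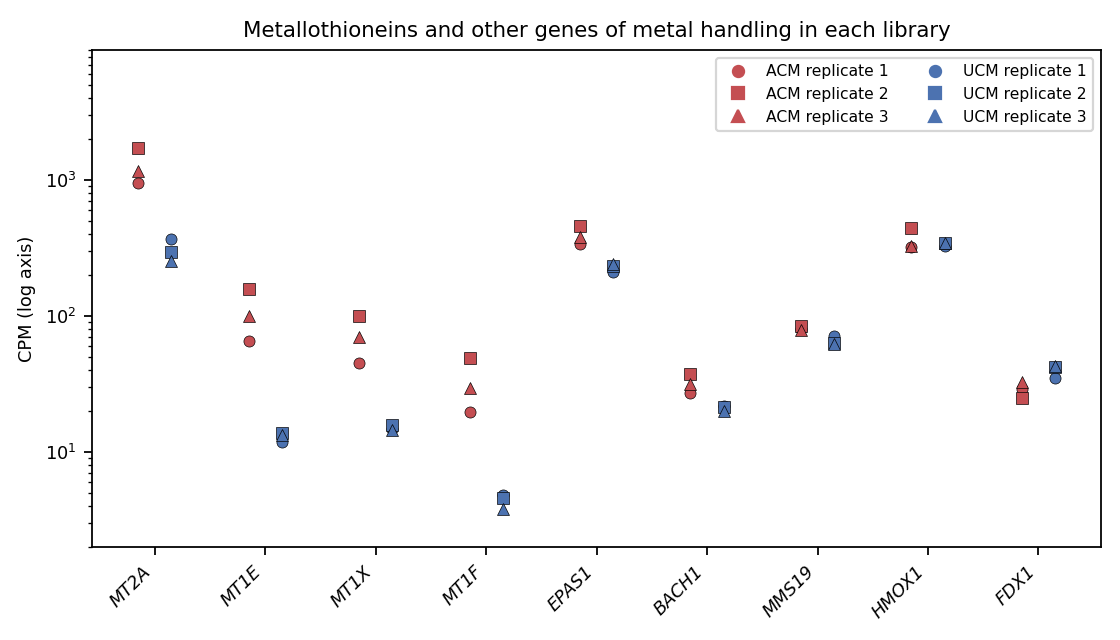
CPM (vertical log axis) of metallothioneins and of other named genes of metal handling in each library, red for ACM and blue for UCM. MT2A, MT1E, MT1X and MT1F lie higher in every ACM library than in any UCM library, while HMOX1 overlaps.

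Because metallothioneins and SLC30A1 moved together, their promoters are shown with the core of the metal response element, TGCACNC or TGCGCNC on either strand, in capitals. The sequences are the 250 bases before 1 start of each gene, as given by RefSeq (GRCh38.p14), written in the direction of transcription. For SLC39A10 that start lies well inside the gene as GENCODE 44 annotates it, so the promoters of its other starts were not searched. In the counts over members the same holds for SLC39A8, FBXL5 and ATOX1 and, by smaller distances, for others, among them SLC11A2 and SLC40A1. SLC30A1 is read from the minus strand of chr1:211579162-211579411, SLC39A10 from the plus strand of chr2:195656708-195656957, MT2A from the plus strand of chr16:56608334-56608583 and MT1X from the plus strand of chr16:56682220-56682469.
SLC30A1: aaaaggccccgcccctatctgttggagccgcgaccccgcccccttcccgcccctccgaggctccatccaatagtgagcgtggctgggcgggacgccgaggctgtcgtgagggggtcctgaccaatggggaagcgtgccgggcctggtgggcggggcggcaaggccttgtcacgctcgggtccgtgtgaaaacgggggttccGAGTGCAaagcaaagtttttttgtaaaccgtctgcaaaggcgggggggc
SLC39A10: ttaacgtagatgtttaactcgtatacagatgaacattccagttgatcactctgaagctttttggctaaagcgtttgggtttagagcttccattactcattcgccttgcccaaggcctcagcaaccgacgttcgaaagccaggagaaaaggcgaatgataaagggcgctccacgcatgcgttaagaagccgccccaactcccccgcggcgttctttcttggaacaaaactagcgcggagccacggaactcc
MT2A: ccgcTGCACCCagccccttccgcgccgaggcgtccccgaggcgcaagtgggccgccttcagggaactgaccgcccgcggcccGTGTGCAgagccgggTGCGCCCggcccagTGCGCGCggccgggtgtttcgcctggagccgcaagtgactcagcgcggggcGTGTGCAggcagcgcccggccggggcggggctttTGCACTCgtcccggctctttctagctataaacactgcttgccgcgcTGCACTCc
MT1X: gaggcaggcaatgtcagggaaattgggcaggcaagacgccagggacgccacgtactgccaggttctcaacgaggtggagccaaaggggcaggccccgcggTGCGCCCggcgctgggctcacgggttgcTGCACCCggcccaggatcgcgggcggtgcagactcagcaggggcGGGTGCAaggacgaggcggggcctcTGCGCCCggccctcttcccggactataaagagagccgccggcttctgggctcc
In this window MT2A held 7 cores, MT1X held 4, SLC30A1 held 1 and SLC39A10 held 0. SLC30A1 had another match 24 bases after its start. Over the whole window of 250 bases before to 50 after the start, 29.6% of the 35116 promoters in the table held at least 1 match and 8.6% held 2 or more, with overlapping matches counted separately. A promoter was found for 31 of the 35 members, all but SLC39A4, SLC39A14, FTH1 and SLC31A2, and 14 of the 31 (45.2%) held a match. By metal, 5 of 16 zinc members, 5 of 9 iron members and 4 of 6 copper members did. Matches did not go with higher calls alone, since FBXL5, which was called lower, held 3 at the start used. Promoters were found for 5 of the 12 metallothioneins, MT1E and MT1F not among them, and all 5 held 2 or more matches. Of these MT1H, MT1B and MT4 held 8, 3 and 3 and had no count in any library. A match is a string of letters and does not show that MTF1 binds there.

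**Figure D4:**
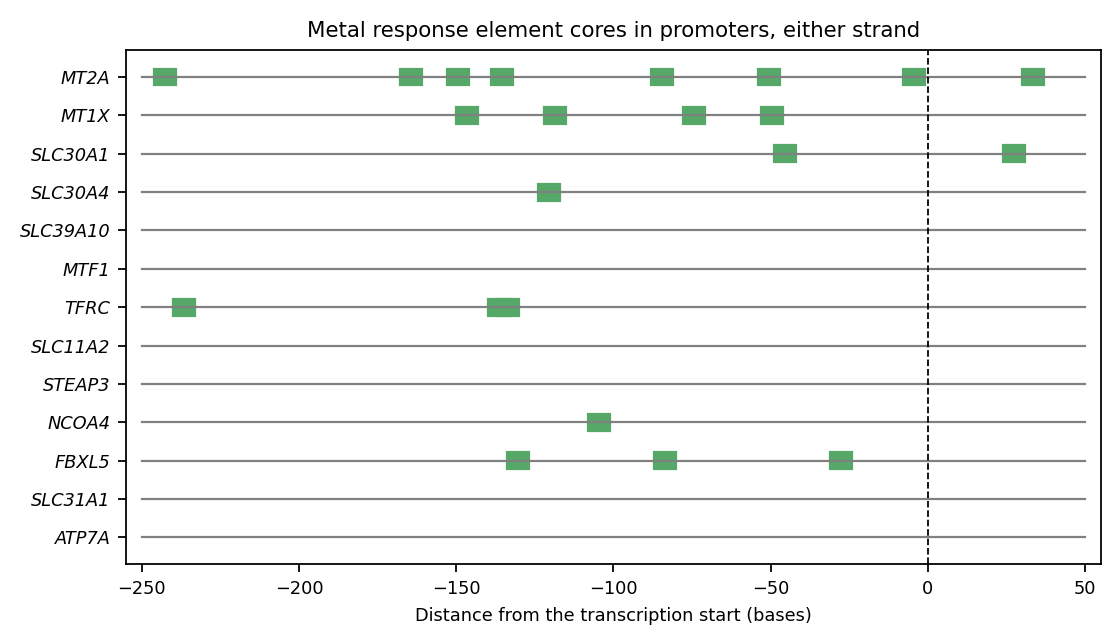
Positions of the metal response element core (green boxes, 7 bases wide) along promoters from 250 bases before to 50 after the transcription start (horizontal axis, bases) for 2 metallothioneins and named members. MT2A and MT1X hold rows of matches, SLC30A1 holds 2, and SLC39A10 (at the start used) and MTF1 hold none.

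Iron enters through TFRC (ENSG00000072274.14), the receptor for transferrin. TFRC had 780, 927 and 859 CPM in ACM and 748, 739 and 752 CPM in UCM. UCM was nearly flat, and all ACM values lay above it, ACM replicate 1 only slightly. The log2 fold change of 0.20 (SE 0.08, adjusted p = 0.154, edgeR) did not pass, and it was 0.13 without ACM replicate 2. SLC11A2 (ENSG00000110911.17, DMT1), which moves ferrous iron out of endosomes, had 33.2, 37.1 and 30.5 CPM in ACM and 29.8, 24.7 and 26.1 CPM in UCM. Here too the groups did not overlap, by a narrow margin, with a log2 fold change of 0.32 (SE 0.11, adjusted p = 0.103, edgeR). SLC11A2 passed in 2 of the 14 alternatives. One was without UCM replicate 1 (log2 fold change 0.41, adjusted p = 0.0346 from edgeR). The other tested every gene of at least 1 count (log2 fold change 0.33, adjusted p = 0.0381 from edgeR). Over the alternatives its adjusted p ran from 0.0346 to 0.334.

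STEAP3 (ENSG00000115107.20), the ferrireductase that turns ferric into ferrous iron in endosomes, had 81.7, 123 and 75.6 CPM in ACM and 58.1, 48.2 and 45.4 CPM in UCM. ACM replicate 2 was far above the other ACM libraries, and all ACM values were above UCM. Its log2 fold change was 0.88 (standard error 0.20) and just missed the threshold (adjusted p = 0.0558 from edgeR). Without ACM replicate 2 the log2 fold change was 0.64 and passed (adjusted p = 0.028 from edgeR), and DESeq2 called it with all libraries (adjusted p = 7.69e-06). It passed in 8 of the 14 alternatives, with adjusted p from 7.69e-06 to 0.206. So all 3 genes of iron uptake had higher values in ACM, and none of them was called in the fit reported here, while STEAP3 and SLC11A2 passed in some of the alternatives.

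Ferritin, the cage that stores iron, is built of a heavy chain from FTH1 (ENSG00000167996.16) and a light chain from FTL (ENSG00000087086.15). FTH1 had 3189, 4351 and 3548 CPM in ACM and 2677, 2992 and 2939 CPM in UCM. The groups did not overlap, and ACM replicate 2 stood highest. Its log2 fold change was 0.37 (SE 0.11, adjusted p = 0.0864, edgeR), but 0.23 (adjusted p = 0.256 from edgeR) without ACM replicate 2 and 0.37 (adjusted p = 0.0132) with DESeq2. Over its alternatives the adjusted p ran from 0.000108 to 0.256, and it also passed without ACM replicate 1 (adjusted p = 0.0377 from edgeR). FTL had 854, 1012 and 818 CPM in ACM and 747, 840 and 806 CPM in UCM, and these overlapped. The log2 fold change of FTL was 0.16 (SE 0.09, adjusted p = 0.311, edgeR), and 0.07 without ACM replicate 2. Both have many pseudogenes. Adding the counts of those named after them left the log2 fold changes at 0.3652 and 0.1649 and the adjusted p at 0.0864 and 0.311 (edgeR). No digit moved, so the check shows only that the counts added made no difference. Whether reads of pseudogenes were assigned to FTH1 or FTL was not tested. FTH1 also shares exon sequence with BEST1 on the opposite strand, but BEST1 had far fewer counts.

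NCOA4 (ENSG00000266412.6), the receptor that carries ferritin to lysosomes so that its iron is freed, had 105, 114 and 116 CPM in ACM and 123, 134 and 134 CPM in UCM. All ACM libraries were lower, by little. The log2 fold change was -0.22 (SE 0.07, adjusted p = 0.0997, edgeR). SLC40A1 (ferroportin), the exporter of iron, had 0 counts in each of the 6 libraries, which allows a level of up to 0.143, 0.169 and 0.163 CPM in ACM and 0.142, 0.161 and 0.175 CPM in UCM by counting error alone (3 counts per library). No export transcript was thus detectable at this depth in either medium.

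Among the genes of iron sensing, FBXL5 (ENSG00000118564.15) encodes the iron-binding ligase subunit that marks iron regulatory protein 2 for breakdown. It had 34.6, 31.4 and 35.5 CPM in ACM and 40.5, 48.0 and 43.2 CPM in UCM. Each ACM value was under each UCM value. FBXL5 fell, with a log2 fold change of -0.37 (SE 0.09, adjusted p = 0.0442, edgeR, lower in 3 of 3 ACM libraries), close to the threshold. The call was lost without any 1 of the ACM libraries (adjusted p = 0.0801, 0.164 and 0.0721 without replicates 1, 2 and 3, edgeR), without UCM replicate 2 (adjusted p = 0.202 from edgeR) and without UCM replicate 3 (adjusted p = 0.15 from edgeR). Its log2 fold change was between -0.42 and -0.31 with any 1 library left out. Limma-trend on log2(TPM + 1) gave -0.31 (adjusted p = 0.228), in a range over the 14 alternatives from 0.00565 to 0.25. ACO1 and IREB2, which encode iron regulatory proteins 1 and 2, ranged from 60.5 to 95.4 CPM with overlapping groups and log2 fold changes of -0.16 and -0.14 (adjusted p = 0.427 and 0.332, edgeR).

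The stem-loops that iron regulatory proteins bind were searched in GENCODE 44 transcripts as a C bulge, a stem of 5 pairs (G with T allowed) and the loop CAGTGN with any base but G last. Such a stem-loop lay in the UTRs of 108 of 19701 canonical coding transcripts (0.548%), 11 in the 5′ UTR and 97 in the 3′ UTR. Matches are described here for some members and not for all, so a member left unnamed is not thereby without one. FTL and SLC40A1 held 1 in the 5′ UTR, TFRC held 4 in the 3′ UTR, and SLC39A9, which is not known for one, held 1 in its 3′ UTR. SLC11A2 and, outside the members, EPAS1 held no match to this strict pattern. The elements of FTL, where binding blocks translation, and of TFRC, where binding protects the mRNA, are shown as DNA letters with the bulge and the loop in capitals. They lie in GRCh38 on the plus strand at chr19:48965341-48965357 (FTL) and on the minus strand at chr3:196050469-196050485 (the last of TFRC along the mRNA) and chr3:196050516-196050532 (the one before it), counting the 17 bases from bulge to stem end.
FTL: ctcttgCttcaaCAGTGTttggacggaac
TFRC last: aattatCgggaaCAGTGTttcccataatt
TFRC before last: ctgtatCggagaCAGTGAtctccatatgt
Of 10 mRNAs with a textbook element, 8 were tested, 1 was called higher and 0 were called lower, with 4 higher and 0 lower at an unadjusted p at or below 0.05, and their median log2 fold change was 0.26. DESeq2 called 2 of them higher and limma-trend 1, and neither called any lower. The gene called was EPAS1, which encodes HIF-2 alpha, the oxygen-regulated subunit of a transcription factor, with 337, 458 and 380 CPM in ACM and 211, 234 and 242 CPM in UCM. All ACM values were well above UCM, with a log2 fold change of 0.77 (SE 0.11, adjusted p = 0.00655, edgeR), and EPAS1 was called under each of the 14 alternatives. All 8, of which 4 are members, had a log2 fold change above 0. Over all 14451 genes tested 6954 were above 0 and 1714 were higher at that unadjusted p.

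Other genes of iron were mostly not called. Of 22 further genes of iron handling 8 were tested and 0 were called by edgeR (3 were higher and 0 lower at an unadjusted p at or below 0.05, DESeq2 called 1 higher and limma-trend 0). All 20 genes of heme synthesis, transport and breakdown were tested, with 1 called higher, 0 called lower and a median of -0.04. At an unadjusted p at or below 0.05 in edgeR 3 were higher and 2 lower. DESeq2 called 1 higher and 0 lower, and limma-trend 0 in either direction. The one called was BACH1, a repressor that heme inactivates and that holds HMOX1 down. BACH1 had 27.4, 37.8 and 31.9 CPM in ACM and 21.8, 21.3 and 20.2 CPM in UCM, without overlap, and a log2 fold change of 0.61 (SE 0.12, adjusted p = 0.0186, edgeR). The call was lost without ACM replicate 2 (adjusted p = 0.0658), ACM replicate 3 (adjusted p = 0.0571), UCM replicate 2 (adjusted p = 0.0778) or UCM replicate 3 (adjusted p = 0.0741, all from edgeR). BACH1 had a log2 fold change between 0.49 and 0.73 with any 1 library left out. With effective lengths as offsets the log2 fold change was 0.05 (adjusted p = 0.976 from edgeR), in a range over the 14 alternatives from 3.2e-06 to 0.976. The effective length of BACH1 was uneven within the groups. It was 819 bases in UCM replicate 2, against 4118 and 3772 bases in UCM replicates 1 and 3. In ACM replicates 1, 2 and 3 it was 3417, 1967 and 3945 bases. HMOX1, which breaks heme down and frees its iron, had 323, 444 and 329 CPM in ACM and 326, 346 and 342 CPM in UCM. Only ACM replicate 2 stood above UCM, the log2 fold change being 0.11 (SE 0.12, adjusted p = 0.622, edgeR) and -0.05 without that library.

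All 24 genes of iron-sulfur cluster assembly were tested, with 1 called higher, 0 called lower (3 at an unadjusted p at or below 0.05 in edgeR, 0 by DESeq2 and 0 by limma-trend) and a median of -0.07. MMS19, which helps to hand clusters to enzymes of DNA repair, had 80.1, 84.6 and 78.7 CPM in ACM and 71.4, 63.0 and 61.9 CPM in UCM. ACM was higher throughout, with a log2 fold change of 0.31 (SE 0.08, adjusted p = 0.0473, edgeR). This call was lost in 8 of the 14 alternatives (adjusted p between 0.00784 and 0.247 over the 14). Among the 8 were those without ACM replicates 1, 2 or 3 (adjusted p = 0.081, 0.173 and 0.0916, edgeR) and without UCM replicates 2 or 3 (adjusted p = 0.199 and 0.184, edgeR). The log2 fold change was between 0.28 and 0.39 with any 1 library left out.

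Copper enters through SLC31A1 (ENSG00000136868.11, CTR1), which had 87.3, 85.2 and 84.1 CPM in ACM and 72.7, 90.3 and 88.0 CPM in UCM. ACM values were nearly equal and lay inside the range of UCM, with a log2 fold change of 0.03 (SE 0.09, adjusted p = 0.867, edgeR). SLC31A2 (ENSG00000136867.11, CTR2), a related protein of endosomes and lysosomes, had 3.71, 2.37 and 3.48 CPM in ACM and 5.16, 4.19 and 6.36 CPM in UCM. Every ACM value was lower, with a log2 fold change of -0.71 (SE 0.24, adjusted p = 0.113, edgeR), which did not pass. It overlaps exons of FKBP15 on the opposite strand over 1582 bases, and FKBP15 had far more counts. Strandedness of the counting is not given in the sources used here, so its few reads are uncertain.

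ATP7A (ENSG00000165240.22), the pump that loads copper enzymes and expels copper, had 11.5, 15.2 and 15.7 CPM in ACM and 14.8, 10.0 and 13.4 CPM in UCM. The groups overlapped in part, since ACM replicates 2 and 3 lay above UCM and ACM replicate 1 lay within it, with a log2 fold change of 0.15 (SE 0.17, adjusted p = 0.664, edgeR). That value depended on single libraries: it was 0.00 without UCM replicate 2, and 0.28 both without ACM replicate 1 and without UCM replicate 1. ATP7A shares 97 exon bases with PGK1 on the same strand, and ATOX1 shares 130 with G3BP1 on the opposite strand, and both neighbours had far more counts. Its sister pump ATP7B and the chaperones ATOX1, CCS and COX17, which hand copper to the pumps, to superoxide dismutase and to cytochrome oxidase, ranged from 5.91 to 50.0 CPM and from -0.30 to 0.14 in log2 fold change (adjusted p between 0.282 and 0.798, edgeR). Of 25 further genes of copper handling and copper enzymes 20 were tested, 0 were called higher (4 at an unadjusted p at or below 0.05 in edgeR, 2 by DESeq2, 0 by limma-trend) and 1 was called lower. That gene was FDX1, a mitochondrial ferredoxin known to reduce copper carried in by ionophores, with 29.2, 25.2 and 32.7 CPM in ACM and 35, 42.5 and 42.7 CPM in UCM. Its ACM values were all lower, with a log2 fold change of -0.46 (SE 0.12, adjusted p = 0.0473, edgeR). The call was lost in 8 of the 14 alternatives (adjusted p between 0.00039 and 0.19 over the 14), among them those without ACM replicates 1 or 2 (adjusted p = 0.102 and 0.173, edgeR) and without UCM replicates 2 or 3 (adjusted p = 0.185 and 0.19, edgeR). FDX1 had a log2 fold change between -0.56 and -0.37 with any 1 library left out.

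Levels between genes were compared in TPM. Averaged over the 6 libraries, FTH1 (10404 TPM) and FTL (2032 TPM) led the members, followed by ATOX1 (319), SLC39A14 (245) and TFRC (243 TPM). In every library FTH1 exceeded FTL and FTL exceeded all the others, while ATOX1, SLC39A14 and TFRC changed places: SLC39A14 had 292, 406 and 273 TPM in ACM and 194, 155 and 152 TPM in UCM. SLC39A10 and SLC30A1 averaged 13.0 and 12.4 TPM and exchanged ranks with the medium. SLC39A10 ran from 10.4 to 11.6 TPM in ACM and 13.6 to 18.3 TPM in UCM. SLC30A1 ran from 13.1 to 17.1 TPM in ACM and 8.90 to 9.91 TPM in UCM. At the low end ATP7A, SLC30A4 and ATP7B averaged 3.28, 3.06 and 1.94 TPM, and the range of ATP7A over the libraries (2.10 to 4.10 TPM) overlapped those of the other two, which lay apart. Metallothioneins together reached 11624, 21449 and 14646 TPM in ACM and 4695, 3659 and 3094 TPM in UCM, so that they passed FTH1 in every ACM library and stayed under it in every UCM library.

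**Figure D5:**
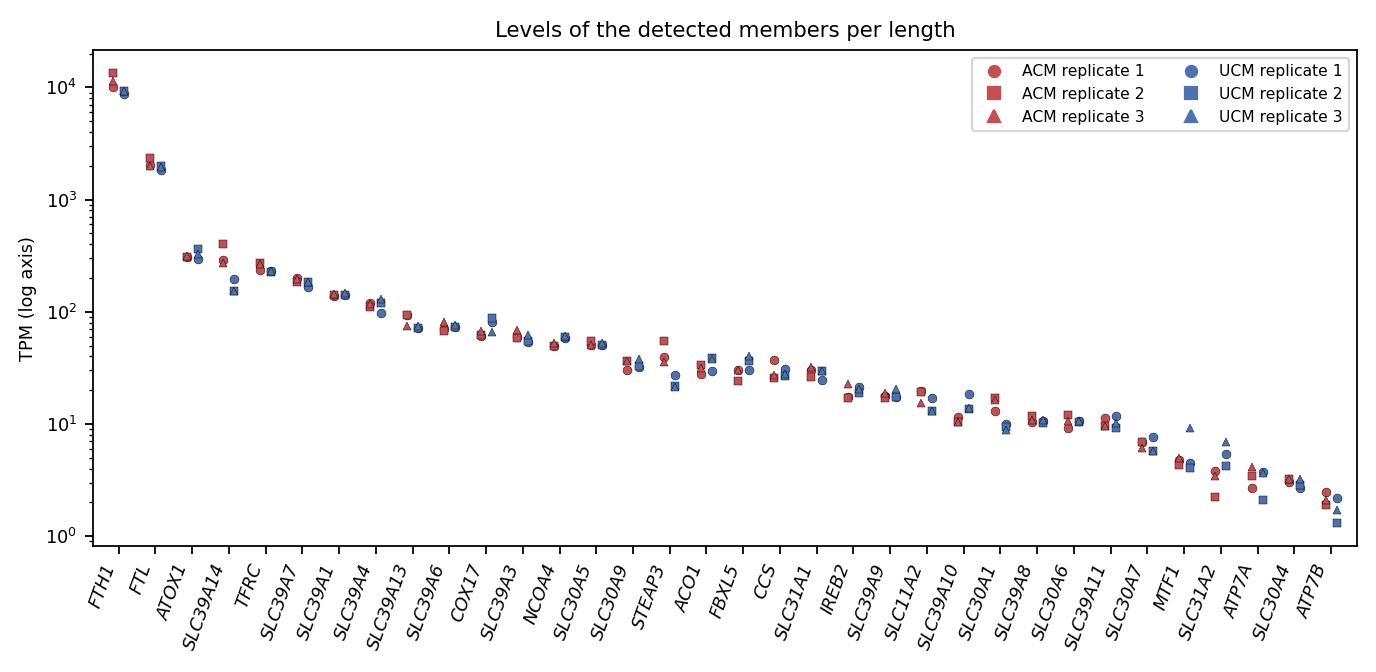
TPM (vertical log axis) of the 34 detected members in each library, in order of their mean over the 6 libraries. FTH1 and FTL stand apart at the top, and SLC39A10 and SLC30A1 lie next to each other in the lower range.

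Effective lengths shifted without overlap between the groups for 3 of the 34 tested members (8.82%), against 9.19% of all genes tested. They were MTF1, SLC30A4 and SLC30A7. For MTF1 only UCM replicate 3, at 3432 bases, lay far from the rest. The groups of SLC30A7 nearly met, with 7763 bases in ACM replicate 1 and 7769 in UCM replicate 2. For SLC30A4 the length was 6045, 5791 and 5861 bases in ACM and 5523, 5251 and 5067 bases in UCM, longer in every ACM library. With this length divided out, SLC30A4 was at 3.05, 3.26 and 3.23 TPM in ACM and 2.71, 2.86 and 3.25 TPM in UCM, and the groups overlapped.

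Set beside the textbook readouts, the genes for zinc held SLC30A1 higher and SLC39A10 lower, along with 4 metallothioneins higher, all at the adjusted p, which are the directions known for a rise in zinc. SLC39A14, which also brings zinc in, was called higher, against the direction of SLC39A10. SLC39A10 and SLC39A14 each lost their call in 3 of the 14 alternatives, and each of the metallothioneins in 3 or 4. The metallothionein list was chosen with earlier results of these libraries known, so its direction is not independent evidence. Metallothionein genes are also known to be induced by cadmium and by glucocorticoids. For iron, TFRC and both ferritin chains did not pass, FBXL5 passed narrowly and lost its call in 8 of the 14 alternatives, and no copper member passed. STEAP3 just missed the threshold and passed in 8 of the 14 alternatives, and FTH1 passed in 4 of its 15. A p that misses the threshold does not show that a gene was unchanged. No metal was measured in medium or cells in these libraries. Whether zinc, another metal or another property of the medium differed for the cells was not tested.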

How the data were processed

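The authors deposited RSEM tables with expected counts, TPM and effective lengths for each gene, which were the values used. The sources used here name Trim Galore, STAR and RSEM on GRCh38 and give no versions. The authors' table of fold changes was not used here. Expected counts were rounded and fitted with edgeR 4.0.16 (TMM, filterByExpr, robust quasi-likelihood F test) in R 4.3.3, with no covariate. The p-values of the 14451 genes tested were adjusted together (Benjamini-Hochberg). Called means an adjusted p at or below 0.05. The procedure was tested on simulated data. Alternatives included DESeq2 1.42.0 and limma 3.58.1. Library values were given for members called, for those at an unadjusted p at or below 0.05 without overlap, for textbook sentinels of each metal, and for up to 5 called genes of each other list plus HMOX1, MT1X and MT2A. MT1M, CD68 and the genes at 0 were named after their values were seen. Members and lists were chosen with earlier results of these data known. Replicates of a group differed beyond sampling noise, with a chi-square per degree of freedom between 2.32 and 21.8. The lowest value was for UCM replicates 2 and 3, while UCM replicate 1 gave 21.8 and 20.2 against them. Pairs of ACM libraries gave between 13.3 and 19. Intervals and floors cover counting error only. Python 3.11 and GENCODE 44 were used for annotation and motifs.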

Additional observations from a re-analysis of the deposited data

How the results depend on the processing

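SLC30A1 and EPAS1 were called under each of the 14 alternatives, and MTF1 under none. The count of genes called, 804, was 1724 with every gene of at least 1 count tested, 362 and 372 with limma-trend on log2(TPM + 1) and log2(TPM + 0.1), 406 with effective lengths as offsets, and from 195 to 1310 when 1 library was left out (284 without ACM replicate 2, 510 without ACM replicate 3, 1310 without UCM replicate 1, 195 without UCM replicate 2 and 218 without UCM replicate 3). Members called higher, 2 as reported, were 4 with DESeq2, 5 with every gene of at least 1 count, and between 1 and 3 with a library left out. Members called lower, also 2, were 0 and 0 with limma-trend, 0 with effective lengths, and between 1 and 2 with a library left out. The members' median of 0.07 was 0.0438 and 0.0467 with limma-trend and between 0.0562 and 0.1163 with a library left out. MTF1 turned to -0.2188 and -0.2452 with limma-trend and to -0.292 with effective lengths, where UCM replicate 3 had a short length. With a library left out SLC31A1 ran from -0.0508 (without UCM replicate 1) to 0.0901 and HMOX1 from -0.0516 (without ACM replicate 2) to 0.201. Otherwise the cause was not tested. Alternatives for genes outside the members, and the bounds and median without single libraries or MT1M, were chosen after seeing the data.

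Replicate numbers were not established as pairs: deviations of same-numbered libraries correlated across genes at 0.318, 0.035 and 0.177, and ACM replicate 3 matched UCM replicate 2 best. With replicate number as a block 1612 genes were called, with 2 members higher (SLC30A1 and FTH1) and 4 lower (SLC39A10, NCOA4, FBXL5 and SLC31A2), while SLC39A14 (adjusted p = 0.0668) and MT2A (adjusted p = 0.0928, edgeR) were not called.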
